A study of Mus musculus with 21 samples.

Results

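Selenoproteins are proteins that contain selenocysteine, and 10 genes of this system were followed in mouse brain RNA: the selenium carrier Selenop, its receptor Lrp8, the glutathione peroxidases Gpx1, Gpx3 and Gpx4, the thioredoxin reductases Txnrd1 and Txnrd2, the small redox proteins Selenow and Selenom, and the deiodinase Dio2. They are 10 of the 21872 gene symbols in the count tables, picked by symbol, and all 10 passed the filter on low counts in every comparison. The set was taken up because Selenop was lower after copper chelation at embryonic day 18.5 (E18.5), so values of TETA against control at E18.5 are given as a description with no test. The study gave mice water (control) or the copper chelator trientine (TETA), a condition its labels call copper-deficient, and its title concerns copper in brain development and autism. There were 6 control and 6 TETA libraries at E18.5, and 5 control and 4 TETA libraries at 7 weeks after birth. The E18.5 libraries of each group are numbered 1-1 to 3-2, and their titles do not say what these numbers stand for. Tests between the ages counted each of them as a separate library. No strain, allele or dose is given in the labels. The tissue of every library is labelled mouse brain, while the protocol speaks only of the prefrontal cortex of male mice at 7 weeks, so region and sex at E18.5 are not given in the sources used here. The labels do not say that libraries came from separate animals, and p-values therefore measure the spread between these libraries, which may be technical.

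Selenocysteine is inserted during translation at a UGA codon that otherwise stops protein synthesis, with the help of an RNA structure in the mRNA, a dedicated tRNA and its elongation factor. Selenop, made largely in the liver but also in the brain, carries many selenocysteines and delivers selenium to tissues. In the brain Lrp8, also known as ApoER2 and as a reelin receptor of neurons, takes up Selenop. Among the other selenoproteins, the glutathione peroxidases, thioredoxin reductases and deiodinases are enzymes that place selenocysteine in their active site. They reduce peroxides, thioredoxin or, in the deiodinases, thyroid hormone.

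The coding sequences show what sets these genes apart, so the stretches around the selenocysteine codon are printed for 6 of them. Sequences come from GENCODE M21 transcripts on GRCm38 (mm10), are in the sense of the gene, and run 5′ to 3′. Capitals mark the in-frame TGA codons, which are read as UGA in the mRNA. Codons are counted from the start codon of the named transcript.
Selenop first selenocysteine codon (Selenop-201): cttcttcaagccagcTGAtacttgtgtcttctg
Selenop last 300 bases (Selenop-201): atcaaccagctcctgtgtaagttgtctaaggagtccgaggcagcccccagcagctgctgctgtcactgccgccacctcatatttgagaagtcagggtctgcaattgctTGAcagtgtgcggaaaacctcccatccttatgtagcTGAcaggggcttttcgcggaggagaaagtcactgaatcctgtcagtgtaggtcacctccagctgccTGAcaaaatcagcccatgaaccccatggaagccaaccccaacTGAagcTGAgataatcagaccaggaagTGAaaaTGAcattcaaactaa
Gpx1 (Gpx1-201): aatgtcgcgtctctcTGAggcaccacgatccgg
Gpx4 (Gpx4-202): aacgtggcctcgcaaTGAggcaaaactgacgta
Selenow (Selenow-201): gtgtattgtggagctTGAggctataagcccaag
Txnrd1 (Txnrd1-201): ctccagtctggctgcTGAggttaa
Dio2 first selenocysteine codon (Dio2-201): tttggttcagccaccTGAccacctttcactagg

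The printed end of Selenop, chr15:3279411-3279710, holds 7 of its selenocysteine codons and the stop codon. Selenop, which spans chr15:3268547-3280508 on the plus strand, had 10 in-frame TGA codons among its 380 codons. The first was codon 59 (chr15:3274848-3274850), and the other 9 ran from codon 259 to codon 377, close to the stop codon. Dio2 (minus strand, chr12:90724552-90738438) had 2, at codon 130 (chr12:90729823-90729825) and codon 263 of 266. The remaining selenoprotein members had 1 each. It was codon 47 of 201 in Gpx1 (chr9:108339451-108339453), codon 73 of 197 in Gpx4 (chr10:80054737-80054739) and codon 13 of 88 in Selenow (chr7:15920464-15920466, minus strand). In both thioredoxin reductases it was the last codon but 1 before the stop, codon 498 of 499 in Txnrd1 (chr10:82896037-82896039) and codon 526 of 527 in Txnrd2. Lrp8 (chr4:107802261-107876840, plus strand), a receptor and not a selenoprotein, had none in 955 codons. Of 21924 protein-coding gene names in the annotation, 24 (0.109%) had an annotated selenocysteine codon, and these were the 9 selenoprotein members and the 15 other selenoproteins listed for comparison. The codon after TGA started with gg in Gpx1, Gpx3, Gpx4, Selenow, Txnrd1 and Txnrd2, and in none of the 10 Selenop positions. Over the 3484 codons of the 10 coding sequences, 8.27% started with these letters.

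**Figure D1:**
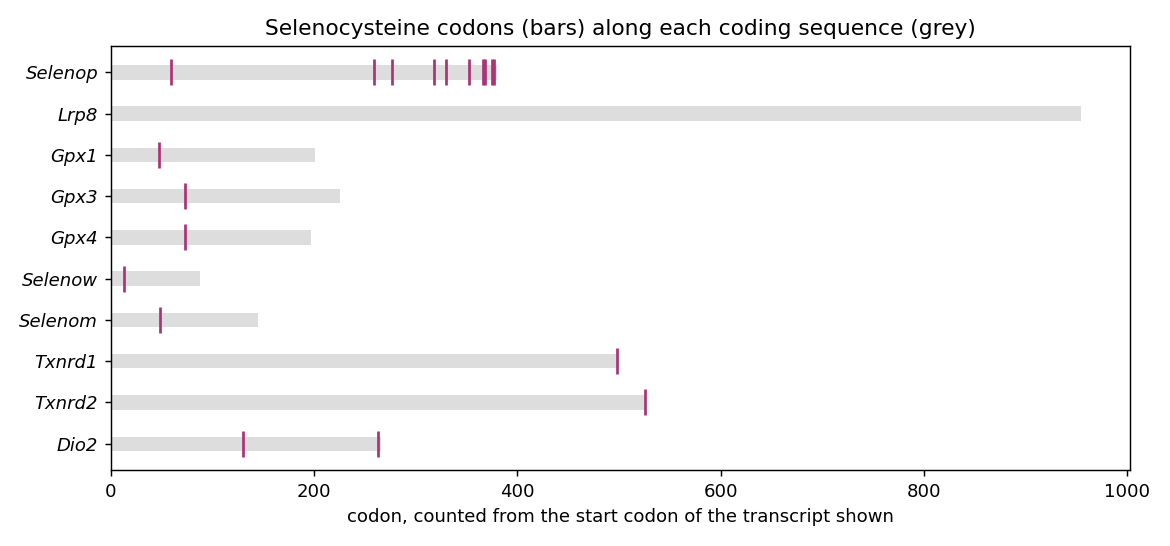
Position of the selenocysteine codons (purple bars) along the coding sequence of each gene (grey, drawn to scale in codons from the start codon). Selenop carried 10 such codons, 9 of them toward its end, and Lrp8 carried none.

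Libraries held 14678265 to 24308555 counts. Levels are given as CPM, which sets each count against its library's total, with TMM factors taken over all 21 libraries, and each member had at least 90 counts in every library, the lowest being in Gpx3. Cortex markers such as Emx1 together stood at 1411 to 1758 CPM at E18.5 and at 2158 to 2352 CPM at 7 weeks, whereas the 7 hindbrain and spinal cord markers summed to at most 1.23 CPM. Of these 7, Hoxb2 was at 0 in all 21 libraries. Striatum markers stood at 651 to 770 CPM in E18.5 controls and at 675 to 742 CPM in E18.5 TETA. At 7 weeks they were at 870 to 1085 CPM in control and lower in TETA, at 392 to 521 CPM. Control replicate 4 at 7 weeks stood apart in choroid plexus markers, at 65.0 CPM against 4.06 to 6.95 CPM in the other 7-week libraries. In bulk RNA, fewer cells of a type and less RNA per cell cannot be told apart.

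At E18.5, Selenop mRNA averaged 37.3 ± 3.48 CPM in the 6 controls against 30.1 ± 1.83 CPM in the 6 TETA libraries (mean ± SD), a log2 difference of -0.31 (SE 0.061). The control libraries lay at 41.2, 38.7, 38.7, 34.2, 39.2 and 32.0 CPM and the TETA libraries at 28.2, 30.9, 28.0, 32.0, 29.4 and 32.1 CPM. Control replicate 3-2 was the lowest control and fell among the highest TETA libraries, so the groups overlapped through this library alone. Leaving out each library in turn gave differences from -0.35 to -0.28. Selenop was chosen on these values and they carry no test.

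The receptor and the other selenoproteins had log2 differences between -0.06 and 0.06 at E18.5. All 9 were smaller than that of Selenop, which was chosen on these values, so its rank is not a result. Lrp8 averaged 338 ± 11.7 CPM in controls against 337 ± 25.4 CPM after TETA, a log2 difference of -0.01 (SE 0.044). Its TETA libraries, from 302 to 378 CPM (median 334), spanned all the control libraries, from 325 to 354 CPM (median 336). For Gpx4, the peroxidase that reduces lipid peroxides in membranes, the difference was 0.00 (SE 0.050), and for the cytosolic peroxidase Gpx1 it was -0.01 (SE 0.043). Selenow, a small thioredoxin-like protein, differed by -0.03 (SE 0.047). The differences were 0.00 (SE 0.090) for Gpx3, -0.02 (SE 0.079) for Selenom and 0.01 (SE 0.035) for Txnrd1. Dio2, which converts the prohormone thyroxine into active thyroid hormone, differed by 0.06 (SE 0.10), and Txnrd2, the mitochondrial thioredoxin reductase, by -0.06 (SE 0.073). The control and TETA values overlapped in all 10 members, as they did in all but 0.319% of genes.

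Of all 13794 genes at E18.5, 0 (0%) reached an adjusted p of 0.05 by the quasi-likelihood test of edgeR. An unadjusted p under 0.05 was found for 660 (4.78%), and DESeq2 called 10. Endothelial markers, 9 genes, summed to 211 to 244 CPM in control and 243 to 270 CPM in TETA at this age, ranges that overlapped, with a median log2 difference of 0.22 and none called. Astrocyte markers summed to 553 to 639 CPM in control and 569 to 615 CPM in TETA. Choroid plexus markers summed to 4.89 to 8.29 CPM and 6.02 to 7.43 CPM. Their part in the Selenop values was not tested.

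**Figure D2:**
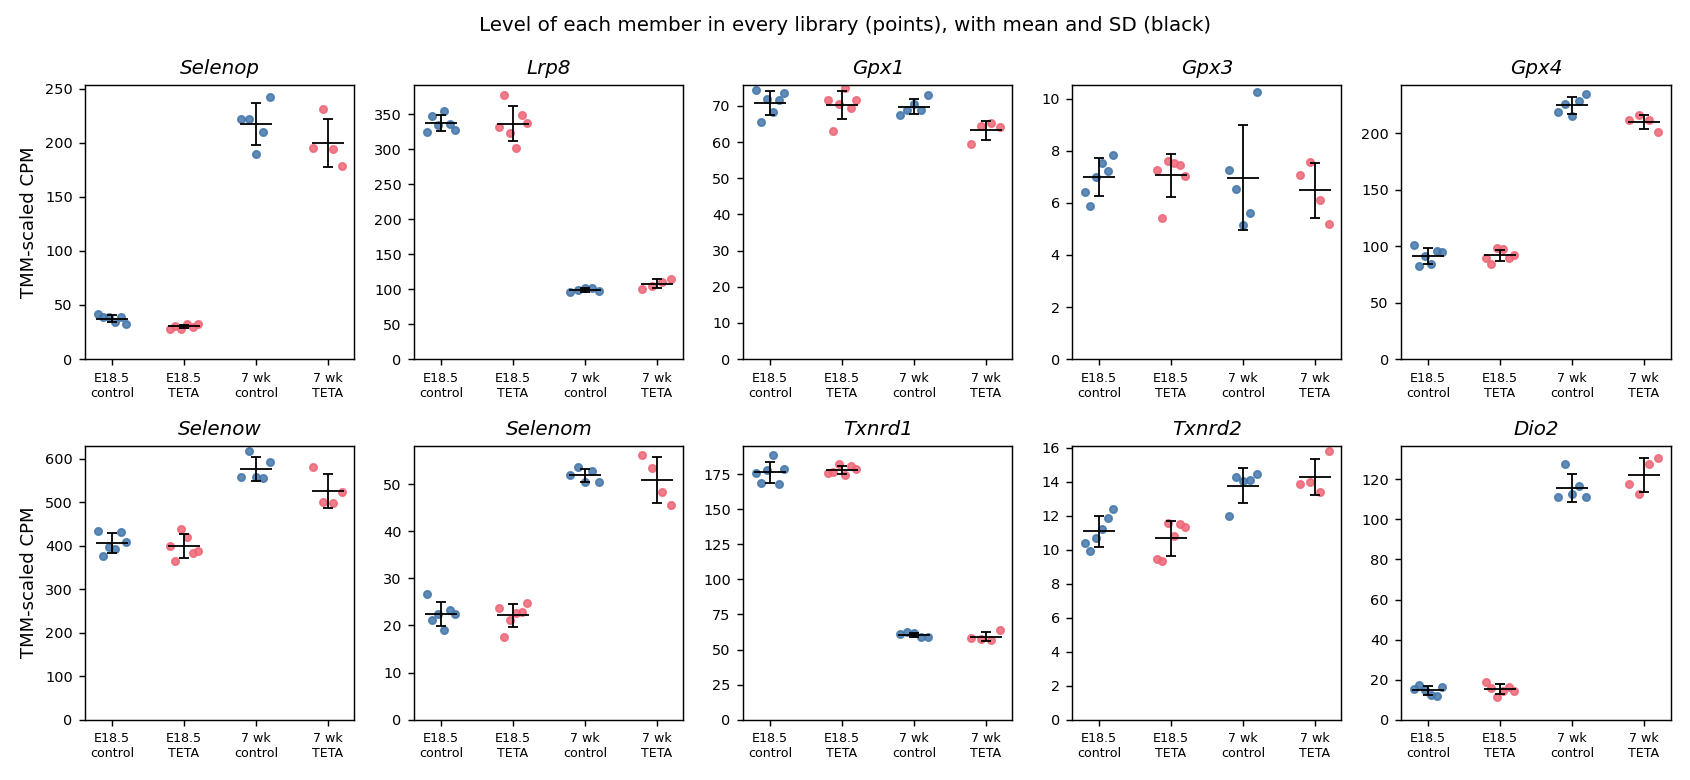
TMM-scaled CPM (y axis, from 0) of each gene in every library, by age and treatment; blue points are control, red points TETA, and the black bars give the mean and SD. Selenop and Dio2 were several times higher at 7 weeks, Lrp8 and Txnrd1 lower, and the differences between control and TETA were small beside these.

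At 7 weeks, 2 of the 10 genes passed the test between TETA and control, Lrp8 higher and Gpx1 lower, each by about 0.13 to 0.14 on the log2 scale. Of all 14240 genes, 9.96% passed an adjusted p of 0.05 in either direction, 5.67% higher and 4.28% lower. The median log2 difference of the 10 members was -0.05, beside 0.00 over all genes tested.

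The carrier Selenop did not pass at 7 weeks. Its control libraries lay at 222, 222, 190, 210 and 243 CPM and its TETA libraries at 195, 231, 194 and 179 CPM. The groups overlapped widely, with TETA replicate 2 above 4 of the 5 controls. The log2 difference was -0.11 (SE 0.064, adjusted p = 0.297 by the quasi-likelihood test of edgeR). With 1 library left out it ran from -0.19 to -0.06. Without TETA replicate 2 it was -0.19 and passed (edgeR, adjusted p = 0.0469). Without TETA replicate 4 it was -0.06 and without control replicate 5 it was -0.07, and neither passed. Adjusted p-values over its alternatives ran from 0.0469 to 0.996. Whether the difference at 7 weeks departs from that at E18.5 was not tested.

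Lrp8, the receptor, rose slightly in TETA at 7 weeks. It was at 95.3, 98.1, 102, 102 and 96.7 CPM in control and at 101, 104, 111 and 115 CPM in TETA. TETA replicates 2, 3 and 4 were above every control, while TETA replicate 1 fell below 2 controls. The means were 98.8 ± 3.08 CPM and 108 ± 6.41 CPM (SD over 5 and 4 libraries). The log2 change was 0.14 (SE 0.041, edgeR adjusted p = 0.0375). The call was lost without control replicate 1, 2 or 5 or without TETA replicate 3 or 4, with changes of 0.11 to 0.17 over all 9 such fits. With the replicate number as a block it was 0.13 and did not pass (edgeR, adjusted p = 0.0626). With the striatum marker level as a covariate it was -0.03 (adjusted p = 0.999, the range over alternatives being 0.0165 to 0.999), but that level did not overlap between the groups, so the covariate and the treatment cannot be told apart in this fit.

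Gpx1, which reduces hydrogen peroxide with glutathione, fell slightly at 7 weeks. Control libraries lay at 67.6, 69.0, 70.6, 69.0 and 72.9 CPM and TETA libraries at 59.4, 64.3, 65.2 and 64.1 CPM. Every TETA library was below every control library, which held for 1 of the 10 members (11.2% of all genes did not overlap). The means were 69.8 ± 2.01 CPM and 63.3 ± 2.60 CPM, and the log2 change was -0.13 (SE 0.040, edgeR adjusted p = 0.0425). The call was lost without any 1 of control replicates 2 to 5 or TETA replicates 1, 2 and 4. Adjusted p-values over the alternatives ran from 0.0371 to 0.897, and the direction was the same in all 15. The call was also lost without TMM factors (log2 -0.12, adjusted p = 0.0742) and with the replicate block (log2 -0.12, adjusted p = 0.122), leaving Gpx1 called in 5 of the 15. With the striatum covariate the change was -0.33 (adjusted p = 0.897, edgeR).

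Among the remaining peroxidases, Gpx4 averaged 225 ± 7.88 CPM in controls against 210 ± 6.28 CPM after TETA at 7 weeks, a log2 difference of -0.09 (SE 0.035) that did not pass (adjusted p = 0.127, edgeR). Gpx3, the secreted peroxidase, was scarce and variable, from 5.16 to 10.3 CPM in controls and from 5.18 to 7.59 CPM after TETA. Control replicate 5 alone was above 7.59 CPM, and the log2 difference of -0.11 had an SE of 0.16 (adjusted p = 0.739, edgeR). Its direction depended on that library, since the difference without control replicate 5 was 0.08.

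Selenow was the member closest to the threshold among those that missed it. It was at 558, 617, 559, 554 and 592 CPM in control and at 580, 501, 499 and 523 CPM in TETA. TETA replicates 2, 3 and 4 were below every control, and TETA replicate 1 was above 3 of the 5 controls. The log2 difference was -0.12 (SE 0.042, edgeR adjusted p = 0.0722). Without TETA replicate 1 it was -0.17 and passed (adjusted p = 0.00643), where its alternatives ranged from 0.00643 to 0.997. Selenom, a thioredoxin-like protein of the endoplasmic reticulum, differed by -0.02 (SE 0.053).

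The thioredoxin reductases did not pass. The log2 difference was -0.02 (SE 0.042) for the cytosolic Txnrd1 and 0.06 (SE 0.074) for Txnrd2. Dio2 averaged 116 ± 6.97 CPM in controls against 122 ± 8.50 CPM after TETA, a log2 difference of 0.09 (SE 0.048, adjusted p = 0.269 in edgeR). In these 3 genes control and TETA libraries overlapped.

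**Figure D3:**
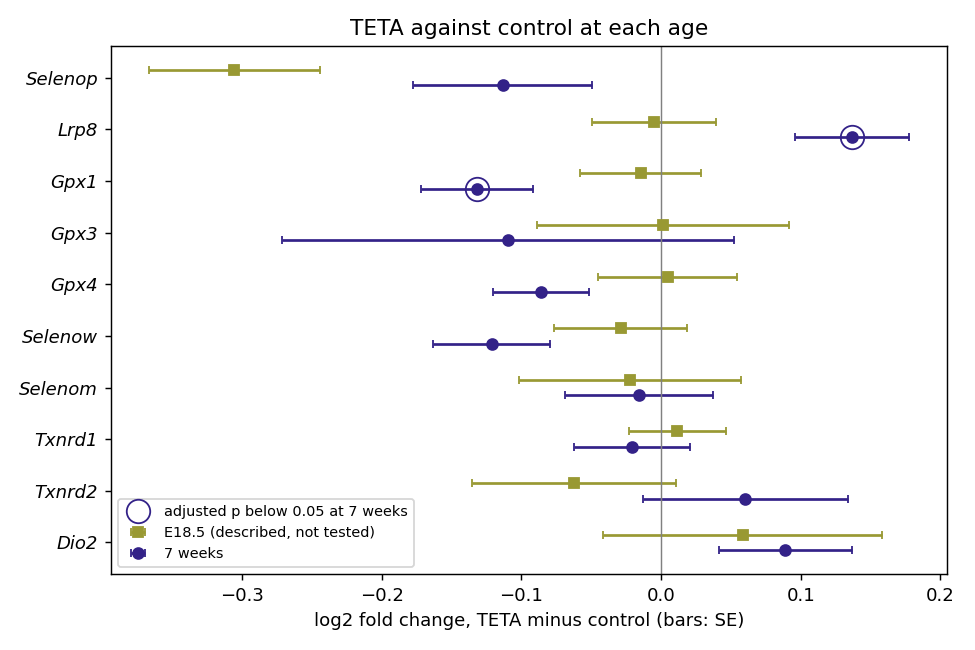
Log2 fold change of TETA minus control (x axis; bars are the SE) for each gene at E18.5 (squares) and at 7 weeks (circles); rings mark the genes that passed an adjusted p of 0.05 at 7 weeks. The largest shift is Selenop at E18.5 at -0.31, which chose the set and was not tested, while Lrp8 at 0.14 and Gpx1 at -0.13 passed at 7 weeks.

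Cell markers moved between the same 7-week libraries. All 13 striatum markers were called lower in TETA, with a median log2 change of -1.34. Astrocyte markers, 3 of 9 called lower, summed to 6052 to 6953 CPM in control and 5505 to 5894 CPM in TETA. Meningeal markers, 3 of 6 called lower, summed to 50.7 to 61.7 CPM and 33.3 to 48.9 CPM. Endothelial markers, 2 of 9 called higher, summed to 273 to 316 CPM and 318 to 374 CPM. Of the other lists, neuron markers had 1 called higher and 1 lower of 6, cortex markers 1 lower of 6 and choroid plexus markers 1 lower of 5 tested, and those of pericytes, microglia, blood and oligodendrocytes had none. With the striatum level as a covariate, 1 of all 14240 genes passed and 0 of the 10 members did, with 1 at an unadjusted p under 0.05. Since that level separated control from TETA completely, this fit says nothing of single members, and the striatum level and TETA cannot be told apart. The part of the other markers in the Lrp8 and Gpx1 changes was not tested.

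Of 67 genes tested in 5 lists of the wider selenium pathway, 4 (5.97%) passed between TETA and control at 7 weeks, beside 9.96% of all genes. Of 13 other selenoproteins tested, Selenon, an endoplasmic reticulum protein of calcium handling, was higher (log2 0.23, SE 0.060, adjusted p = 0.0185 in edgeR). Sephs2, the selenoprotein that makes selenophosphate for selenocysteine synthesis, was lower (log2 -0.17, SE 0.047, adjusted p = 0.0304 in edgeR). The other 11 did not pass, and the list's median was -0.02. Of 11 genes of selenocysteine synthesis and insertion, 0 passed in edgeR, 2 had an unadjusted p under 0.05 (as 24% of all genes did), and the smallest p was that of Secisbp2l (log2 -0.10, adjusted p = 0.0883). Among 7 receptors and reelin partners of Lrp8, the second reelin receptor Vldlr was lower (log2 -0.12, SE 0.037, adjusted p = 0.0360 in edgeR). Lrp8 and Vldlr, which bind the same ligand, thus passed in opposite directions. Of 23 glutathione and thioredoxin genes 0 passed, 5 had an unadjusted p under 0.05, and the smallest p was that of the mitochondrial peroxiredoxin Prdx3 (log2 -0.14, adjusted p = 0.0911). Among 13 thyroid hormone genes the receptor Thrb was higher (log2 0.14, SE 0.042, adjusted p = 0.0379 in edgeR). These 4 calls were lost when single libraries were left out: Selenon without control replicate 2 or TETA replicate 2, Sephs2 without control replicate 3 or 5 or TETA replicate 2, 3 or 4, Vldlr without control replicate 2, 3 or 4 or TETA replicate 1, 2 or 3, and Thrb without control replicate 2, 4 or 5 or TETA replicate 3 or 4. Sephs2 and Vldlr were also lost without TMM factors, and Selenon, Sephs2 and Thrb with the replicate block.

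Between the ages the differences were far larger. In control brain, of the 9 genes other than Selenop, 5 were higher at 7 weeks than at E18.5, 2 were lower, and Gpx1 and Gpx3 did not pass. Selenop was chosen on E18.5 libraries that enter this contrast and is left out of the count. Such calls were common among all 14660 genes, of which 89.3% passed, 44% higher and 45.3% lower. Stage cannot be told apart from brain region, sex or sequencing run, which may differ between the tables.

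Dio2 and Selenop had the largest stage differences of the 10. Dio2 was at 12.1 to 17.1 CPM in E18.5 controls (median 15.1) and at 111, 128, 113, 117 and 111 CPM in 7-week controls, 7.96-fold higher (log2 2.99, SE 0.080, adjusted p = 9.49e-26 in edgeR). Only 8.08% of genes had a larger absolute change. Selenop was at 32.0 to 41.2 CPM (median 38.7) and then at 190 to 243 CPM, 5.84-fold higher (log2 2.55, SE 0.065). For Selenop 11.4% of genes had a larger change, and since it was chosen on the E18.5 libraries its stage difference is given as a description, with no test. The ages did not overlap in either gene.

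The receptor went the other way. Lrp8 was at 325 to 354 CPM in E18.5 controls and at 95.3 to 102 CPM in 7-week controls, 3.42-fold lower (log2 -1.77, SE 0.046, adjusted p = 4.94e-26 in edgeR). Txnrd1, the cytosolic reductase of thioredoxin, was likewise 2.92-fold lower, from 176 ± 7.56 CPM to 60.4 ± 1.6 CPM (log2 -1.55, SE 0.037). In neither gene did the ages overlap.

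Gpx4 was 2.46-fold higher at 7 weeks, from 91.4 ± 7.12 CPM to 225 ± 7.88 CPM (log2 1.30, SE 0.045), and Selenom was 2.31-fold higher, from 22.5 ± 2.55 CPM to 51.8 ± 1.38 CPM (log2 1.21, SE 0.071). Selenow was 1.42-fold higher (log2 0.50, SE 0.047) and Txnrd2 1.24-fold higher (log2 0.31, SE 0.072, adjusted p = 2.5e-04 in edgeR). For Txnrd2 the ages overlapped, 9.94 to 12.4 CPM at E18.5 against 11.99 to 14.4 CPM at 7 weeks. Gpx1 differed by -0.02 (SE 0.041, adjusted p = 0.602) and Gpx3 by 0.00 (SE 0.13, adjusted p = 0.995). Groups did not overlap in 6 of the 9 genes other than Selenop, where 79.5% of all genes did not. Without TMM factors the median of all genes moved by -0.15 in this contrast, and Gpx1, at -0.17, passed. No other member changed its call there.

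The TETA libraries, which share none with the control contrast but share its estimate of spread, gave 5 higher and 3 lower of the 9 genes other than Selenop between the ages, where 88.1% of all genes passed, 43.6% higher and 44.5% lower. The ages did not overlap in 7 of the 9, beside 80.3% of all genes. The 5 higher were Dio2 (log2 3.01), Selenom (1.2), Gpx4 (1.19), Txnrd2 (0.42) and Selenow (0.40). The 3 lower were Lrp8 (-1.64), Txnrd1 (-1.59) and Gpx1 (-0.15, SE 0.045, adjusted p = 0.00242 in edgeR). Selenop, at 2.72, uses the E18.5 TETA libraries on which it was chosen, and its value is a description. Whether any stage change differs between control and TETA was not tested.

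Cell markers also differed with age. Astrocyte markers summed to 553 to 639 CPM in E18.5 controls and to 6052 to 6953 CPM in 7-week controls, with 9 of 9 called higher (44% of all genes were) and a median log2 change of 2.75. Microglia markers (8 of 8 higher, median 2.76), oligodendrocyte markers (5 of 6 higher, median 6.92) and meningeal markers (5 of 6 higher, median 2.61) were higher too, and all 5 blood genes tested were lower (median -2.0). Cortex markers had 1 higher and 4 lower of 6 (median -1.11). Striatum markers had 9 higher and 3 lower of 13 (median 0.55), and neuron markers 3 and 3 of 6 (median 0.59). Endothelial markers had 3 higher and 2 lower of 9, and pericyte markers 2 and 2 of 5. Of 7 choroid plexus markers tested, 4 were higher and 3 lower. The part of any of these lists in the stage changes was not tested.

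Of the 67 pathway genes tested between the ages in control brain, 61 (91%) passed, near the 89.3% of all genes, of which 44% were higher and 45.3% lower. The counts by list are read against these shares. The other selenoproteins had 5 higher and 5 lower of 13 tested, with a median of 0.07, beside 0.31 for the 9 members other than Selenop and -0.02 for all genes. Dio3, the deiodinase that inactivates thyroid hormone, was lower (log2 -1.80, SE 0.24), opposite to Dio2. Selenoh (-1.49), a nuclear selenoprotein, and Txnrd3 (-1.37) were also lower. Selenos (0.74), Selenot (0.54) and Selenok (0.36) were higher.

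The selenocysteine machinery had 4 genes higher and 5 lower of 11, where 44% and 45.3% of all genes were. Sephs1 (log2 -1.88), Trnau1ap (-1.11), a protein associated with the selenocysteine tRNA, and Alkbh8 (-0.86), which modifies tRNA, were lower. Scly (1.40), which frees selenium from selenocysteine, Pstk (1.12), the kinase that acts on the charged tRNA, and Secisbp2l (0.55) were higher. Among the Lrp8 partners 3 were higher and 4 lower of 7, beside the same shares of all genes. Lrp2 (-2.22), another receptor for Selenop, the ligand Reln (-1.45) and the adaptor Dab1 (-1.43) were lower, as Lrp8 was, and Pafah1b1 (0.42), Dab2ip (0.39) and Lrp1 (0.38) were higher.

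Glutathione and thioredoxin genes were 13 higher and 10 lower of 23, beside 44% and 45.3% of all genes. The cystine transporter Slc7a11 (log2 3.53), the sulfiredoxin Srxn1 (3.1) and the peroxiredoxin Prdx6 (1.61) were higher, and Prdx2 (-1.36), Gpx7 (-1.24) and the thioredoxin inhibitor Txnip (-1.12) were lower. Thyroid hormone genes were 8 higher and 4 lower of 13, a share passed near the 89.3% of all genes. Klf9 (4.33), a hormone-induced transcription factor, and the receptor Thrb (3.59) were higher, and the receptor Thra (-0.49) and the coactivator Ncoa1 (-0.12) were lower, the call of Ncoa1 being lost in 11 of 18 alternatives. Ttr, the thyroxine carrier of choroid plexus and also one of its markers, was called higher at 3.70, but at -0.58 it did not pass without control replicate 4, the library high in choroid plexus markers.

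**Figure D4:**
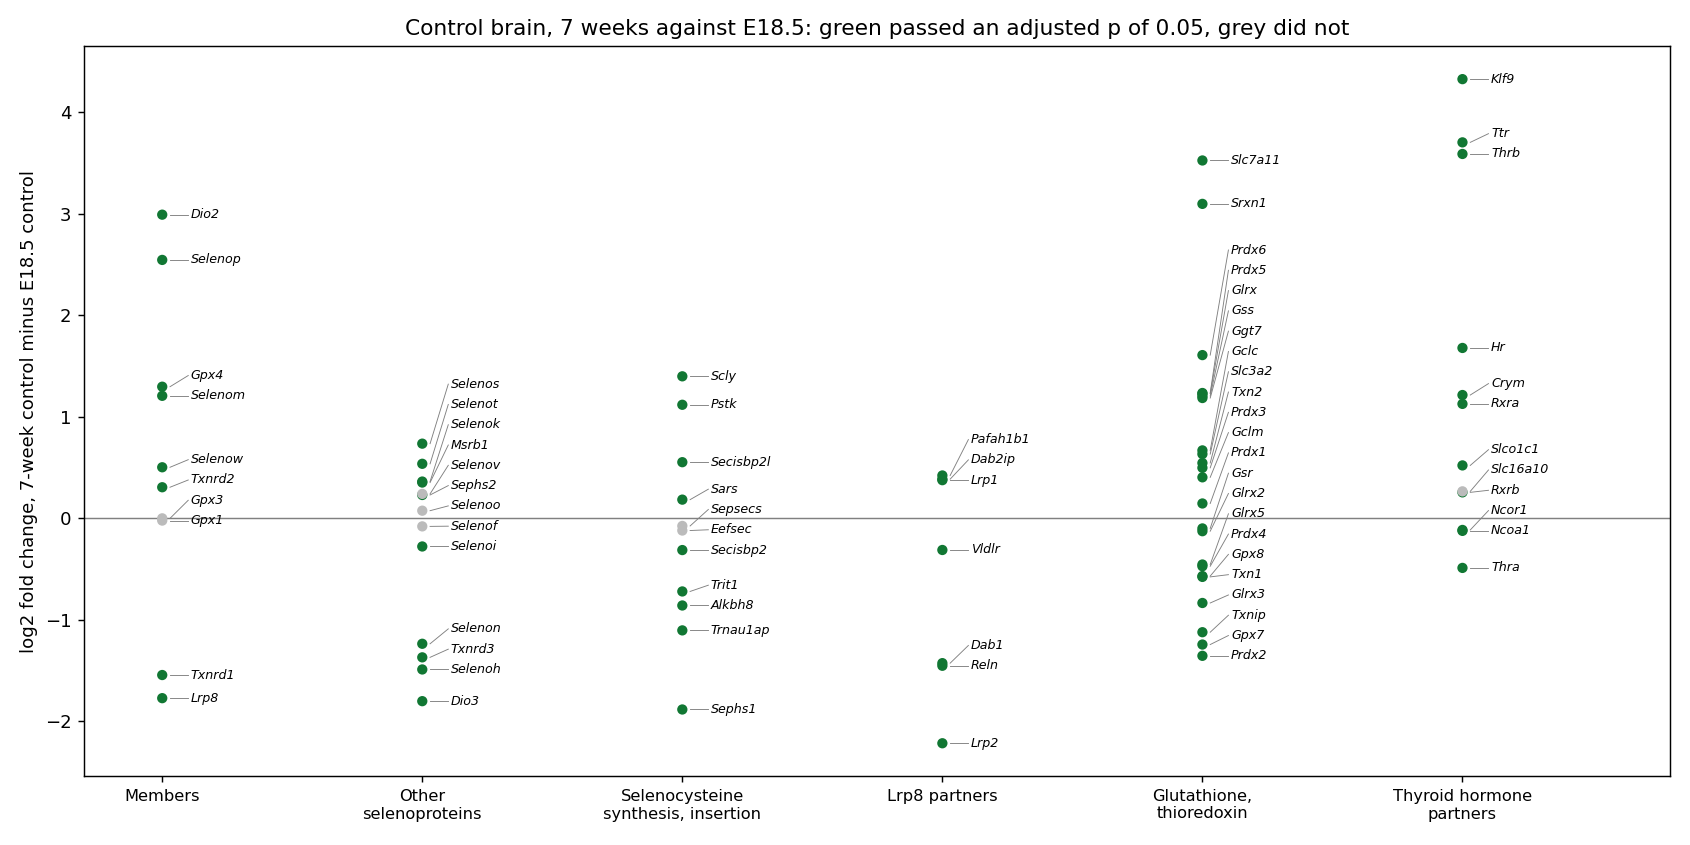
Log2 fold change of 7-week control minus E18.5 control (y axis) for the genes reported here from 6 lists (x axis); green points passed an adjusted p of 0.05 and grey points did not. Dio2 and Selenop lie highest among the members and Lrp8 lowest, and the position of Ttr rests on 1 library. Selenop, chosen on the E18.5 libraries, is shown as a description.

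Per kilobase of exon, which allows a rough comparison of genes, the order of levels changed between the ages. Exon length takes in every annotated exon of a gene, so it can exceed the length of the transcript expressed. In E18.5 controls Selenow stood highest at 552 ± 31.0 CPM per kilobase, followed by Gpx4 at 53.0 ± 4.13 and Gpx1 at 49.2 ± 2.30, whose libraries overlapped. Lrp8 (32.1 ± 1.12), Txnrd1 (24.9 ± 1.07), and then Selenom (15.2 ± 1.72) and Selenop (13.1 ± 1.22), which overlapped, came next. Gpx3 (3.85 ± 0.40), Dio2 (2.53 ± 0.365) and Txnrd2 (2.52 ± 0.209) were lowest, the last pair overlapping. In 7-week controls Selenow was again highest at 783 ± 37.3 CPM per kilobase and Gpx4 second at 130 ± 4.57. Selenop now ranked next at 76.5 ± 6.82, above Gpx1 (48.5 ± 1.40) and Selenom (35.0 ± 0.930), with no overlap. Dio2 followed at 19.9 ± 1.2, above Lrp8 (9.40 ± 0.293) and Txnrd1 (8.53 ± 0.226). Gpx3 (3.84 ± 1.11) and Txnrd2 (3.13 ± 0.229) overlapped at the bottom. The TETA groups had the same order of means at each age. The 24 selenoprotein mRNAs together took 1510 ± 36.4 CPM in E18.5 controls, 1484 ± 51.5 CPM in E18.5 TETA, 2036 ± 58.6 CPM in 7-week controls and 1935 ± 38.6 CPM in 7-week TETA. Selenow alone gave 26.8% to 28.3% of these sums.

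Variation of the members within groups was not compared with that of other genes. The coefficient of variation between libraries of a group had a median over the 10 genes of 4.13% in 7-week controls, 7.11% in 7-week TETA, 7.16% in E18.5 TETA and 8.04% in E18.5 controls. It was highest for Gpx3 in 7-week controls, at 29.0%.

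Among 10541 genes compared over the 21 libraries with group means removed, Gstz1, an enzyme of tyrosine breakdown, varied most like Selenop (Pearson r = 0.89, Spearman rho = 0.84). Other genes among the most like Selenop were the metallothionein Mt2 (r = 0.77), Errfi1 (0.74) and Eci2 (0.72). None of these 4 passed between TETA and control at 7 weeks, and the log2 difference at E18.5 was -0.08 for Gstz1. Among the genes most like Lrp8 were Phf3 (r = 0.92, rho = 0.94), Clip1 (0.91), the postsynaptic scaffold Shank2 (0.90) and Tbl1x (0.90). These are descriptions of the same libraries, which share depth and tissue makeup between the genes.

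**Figure D5:**
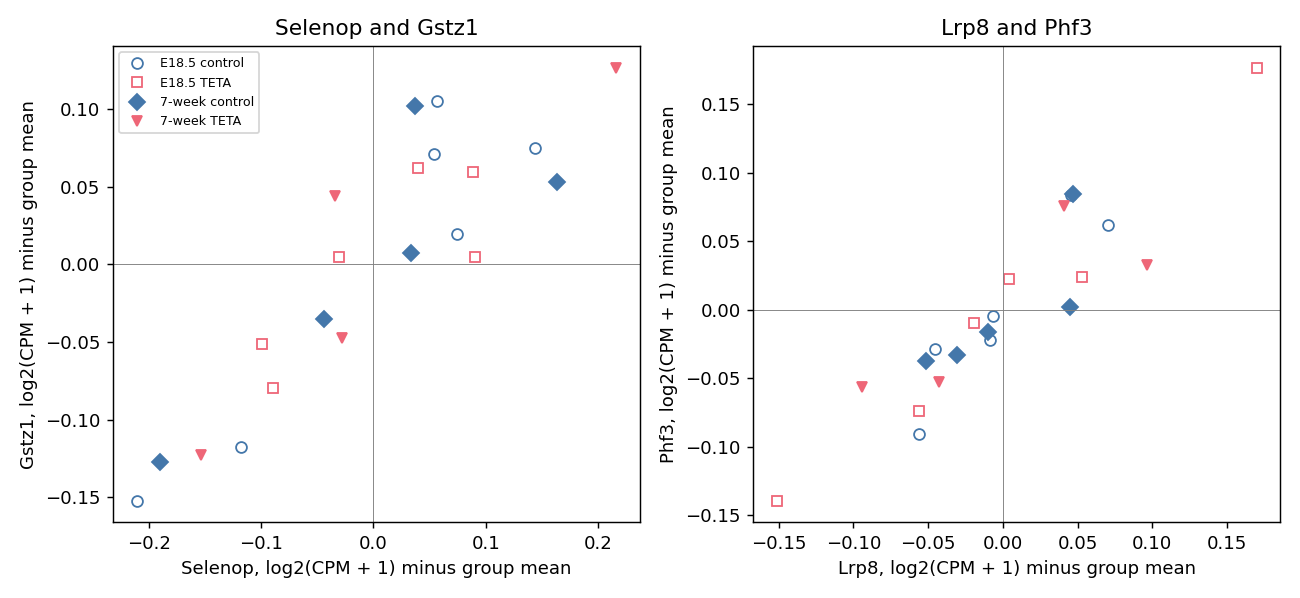
Deviation of each library from its group mean on the log2(CPM + 1) scale, for Selenop (x axis) against Gstz1 (y axis, left) and Lrp8 against Phf3 (right), with 21 libraries in 4 groups. The points of all 4 groups run from lower left to upper right in both panels, with r = 0.89 and 0.92.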

How the data were processed

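RNA was measured in 21 libraries (TruSeq Stranded mRNA). The authors deposited whole-number counts per gene symbol, 1 table per age, made with STAR 2.7.1a and featureCounts 2.0.1 on mm10, per the submitters' processing notes. The strand setting, the annotation counted and the handling of reads shared by overlapping or near-identical genes are not given in the sources used here. In the E18.5 table, 1940 genes at 0 in control replicate 1-1 held only multiples of 11 elsewhere and were divided by 11; no member was among them. The lowest chi-square per gene between replicate libraries was 2.27, so none was a duplicate.

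Genes were kept by filterByExpr (minimum count 10), scaled by TMM and tested by edgeR 4.0.16 (limma 3.58.1, R 4.3.3) with Benjamini-Hochberg adjustment over all genes at 0.05. Each age was fitted alone, and the ages were compared in 1 fit of all 21 libraries. The SE is the log2 change divided by the square root of F. The fits were tested on simulated data. DESeq2 1.42.0 was an alternative. Likeness used log2(CPM + 1) of genes with a mean of at least 5 CPM at each age. Exon length is the union of GENCODE M21 exons. Members, lists and tests were chosen with earlier results of these data known. All members were named, with list genes past the threshold at 7 weeks (or the smallest p), up to 3 genes per list and direction between ages, and the 5 genes most like Selenop and Lrp8. Some genes that the rule names are not reported here. Replicate numbers at E18.5 and at 7 weeks were not used to pair libraries in the main fits.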

Additional observations from a re-analysis of the deposited data

Results flagged for a closer look

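In 3 of the 40 sets of values (10 genes in 4 groups), 1 library lay far from the others of its group, with a gap to its nearest neighbour, as a share of the group's range, above the 95% critical value of Dixon's test. Chance gives about 1 in 20, or 2 of 40. Gpx3 in E18.5 TETA replicate 1-2 was at 5.42 CPM, with the other 5 libraries at 7.05 to 7.62 CPM (ratio 0.77). Txnrd1 in 7-week TETA replicate 4 was at 64.1 CPM, with the other 3 at 57.0 to 58.0 CPM (ratio 0.846). Txnrd2 in 7-week control replicate 1 was at 11.99 CPM, with the other 4 at 14.1 to 14.4 CPM (ratio 0.855). None of these genes passed between TETA and control at 7 weeks, and leaving out the library changed no tested call of that gene.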

How the results depend on the processing

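At 7 weeks, 2 of the 10 members passed, and this count was 1 without TMM factors, 0 with the striatum covariate and 0 to 2 when 1 library was left out. Of all genes 1418 passed, 927 to 1392 with 1 library left out (927 without TETA replicate 3) and 1 with the striatum covariate, where 704 had an unadjusted p under 0.05; the striatum level did not overlap between the groups, so this fit cannot separate it from TETA. Without TMM factors 67.6% of the calls were higher, against 57.0%. At E18.5 the count of 0 became 10 in DESeq2, 2 with libraries summed by their first number and 0 to 7 with 1 library left out (7 without TETA replicate 1-2, 3 without control replicate 3-2). Ttr between ages ran from -0.58 (without 7-week control replicate 4) to 4.51 with 1 library left out. Counts between ages stayed within 1.5 times under every alternative run. Of 150 member values under alternatives at 7 weeks, 122 kept direction and call, 16 lost the call, 2 gained it and 10 changed sign. The sign changed with the striatum covariate for Lrp8 (-0.0289), Dio2 (-0.2332), Txnrd2 (-0.0456), Txnrd1 (0.0112) and Selenom (0.2796), and for Phf3 (-0.1077), Shank2 (-0.0853) and Clip1 (-0.013). It changed with the replicate block for Gpx3 (0.0874) and Mt2 (0.0083), and without TMM factors for Selenom (0.0006). With 1 library left out, Gpx3 ran from -0.196 to 0.0765, Selenom from -0.0691 to 0.0362, Mt2 from -0.1248 to 0.0043 and Eci2 from -0.0341 to 0.0327. Of these, Lrp8 alone had passed the test. Between control ages, the uncalled Gpx1 and Gpx3 changed sign: with a mean of at least 50 counts (0.0272 and 0.0494), in DESeq2 (0.0122 and 0.0328), with counts as deposited (0.0034 and 0.0252) and with median-ratio scaling (0.0133 and 0.035). Gpx3 was 0.0047 with control libraries only and ran from -0.1856 to 0.0837 with 1 library left out. The cause of these changes was not tested.

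Same-numbered control and TETA libraries deviated together with correlations of -0.33 to 0.33 at E18.5 and -0.11 to -0.04 at 7 weeks. These correlations cannot show whether such libraries shared a litter, batch or day. With the number as a replicate block, 0 members and 1072 genes passed at 7 weeks, and 0 genes at E18.5. Counts of 90 to 227 per library limit Gpx3, whose SE at 7 weeks was 0.16.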
